A study of Homo sapiens with 4 samples.

Results

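The genes described here encode the sensors of misplaced nucleic acid in human cells and the proteins that pass on or limit their signal: CGAS, STING1, IFIH1, RIGI, MAVS, TLR3, TBK1, IRF3, TREX1 and ADAR. They were chosen by symbol, and all 10 were found among the 59409 gene symbols of the table, RIGI under its older name DDX58. The values are TPM, a relative transcript abundance in which reads are divided by gene length and scaled within each library, so levels can be compared between genes. A minimum of 1 TPM in at least 2 libraries left 8 of the 10 genes among the 15815 tested. RIGI and TREX1 did not reach it in any library.

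DNA in the cytosol is bound by cGAS, which makes the messenger cGAMP, and cGAMP activates STING on the endoplasmic reticulum. Viral or other double-stranded RNA is bound by RIG-I and MDA5 (encoded by RIGI and IFIH1), which signal through MAVS on mitochondria, while TLR3 senses double-stranded RNA in endosomes. All of these routes reach the kinase TBK1 and the transcription factor IRF3, which induces type I interferon, and TREX1 and ADAR keep the cell's own DNA and RNA from setting them off. Several sensors are themselves induced by interferon.

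The samples were 786-O cells, a human renal carcinoma line, sequenced as polyadenylated RNA. There were 2 control libraries, titled negative control and given the genotype WT and the name Cas9, and 2 libraries with the genotype DEK KO. DEK encodes a chromatin-associated protein, and the comparison asked what its loss changes in these cells. Knockout clones were derived from a clone of 786-O that expresses Cas9 from a lentivirus (LentiCas9-Blast), by infection with a LentiGuide-Puro virus carrying DEK guides and sorting of single cells. The labels name no guide virus and no later single-cell sort for the controls, so loss of DEK cannot be told apart from that infection and cloning. Separate cultures or clones within a group are not described either, so p-values reflect the spread among these 4 libraries alone, and that spread may be technical.

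Depth was estimated from the steps between low TPM values and came to 35800000 to 40100000 reads per library. DEK transcripts measured 95.02 and 76.3 TPM in control cells against 31.4 and 15.7 TPM under DEK KO, 3.64-fold lower on average (limma adjusted p = 0.0304). Of 7 markers of this kidney line fixed for the check, 6 reached 1 TPM, PAX8 among them at 140.1 to 160 TPM, and CA9, at most 0.346 TPM, did not. The 8 immune markers, which would mark cells rich in nucleic acid sensors, summed to 0.732 to 1.15 TPM in the controls and 0.876 to 1.33 TPM in the knockouts, with CD3E, MS4A1 and TYROBP at 0 in every library. The 4 endothelial markers summed to at most 0.327 TPM and the 4 fibroblast markers to at most 1.52 TPM. In these bulk samples fewer cells that express a gene and less RNA per cell cannot be told apart.

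Of the 8 tested sensing genes, STING1 and IRF3 rose in the knockout and none fell (limma, Benjamini-Hochberg adjusted p under 0.05 over all genes). The 2 calls are 25% of the 8, where 17.7% of all tested genes were called, 9.06% higher and 8.67% lower. IFIH1 had the largest log2 fold change of the 8 but uneven knockouts, and did not pass the test. TBK1 was lower in both knockouts and missed the threshold. The median log2 fold change of the 8 was -0.06, the same as over all tested genes (-0.06).

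**Figure D1:**
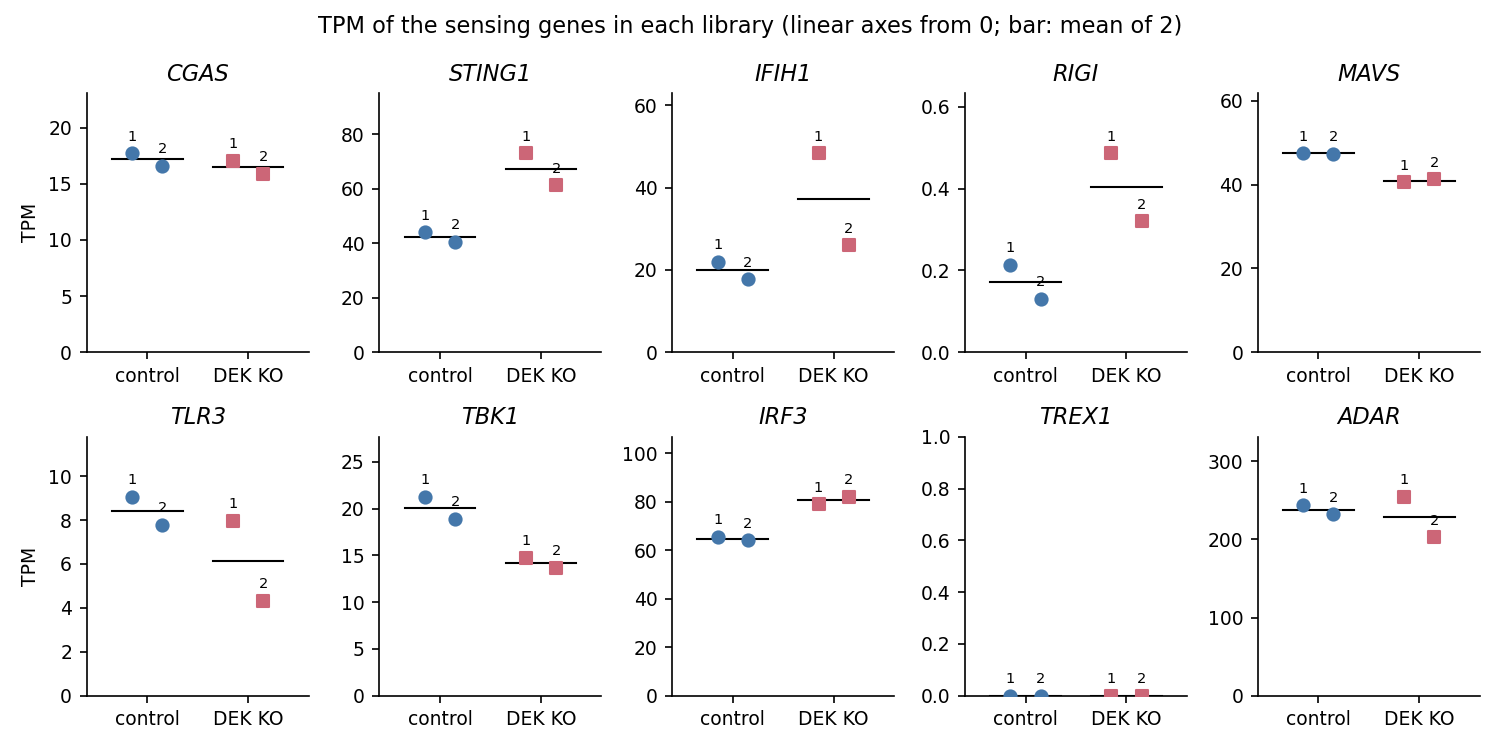
TPM (linear axes from 0) of each of the 10 genes in the 2 control libraries (blue circles) and the 2 knockout libraries (red squares), numbered by replicate, with the group mean as a bar. STING1 and IRF3 lie higher in both knockouts, TBK1 and MAVS lower, IFIH1 is spread between the knockouts, and TREX1 is listed at 0 throughout.

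The DNA sensor itself did not pass the test. CGAS (ENSG00000164430, chromosome 6, 73413515 to 73452276, minus strand, GRCh38) measured 17.7 and 16.6 TPM in control cells against 17.1 and 15.9 TPM under DEK KO. The groups overlapped, with means of 17.2 ± 0.775 and 16.5 ± 0.827 TPM (SD, n = 2 per group). Its log2 fold change was -0.06 with a 95% interval of -0.33 to 0.21 (limma adjusted p = 0.722), and the sign turned under 4 of the 13 alternatives, up to 0.08 with the trend on GC content removed.

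STING1, the adaptor that cGAMP activates (ENSG00000184584, chromosome 5, 139475534 to 139482935, minus strand), measured 44.1 and 40.5 TPM in control cells against 73.1 and 61.25 TPM under DEK KO. Both knockouts lay above both controls, as they did for 29.2% of all tested genes. The mean rose 1.59-fold, from 42.3 ± 2.51 to 67.2 ± 8.38 TPM, a log2 difference of 0.65 with SE 0.115 that was seen in 2 of 2 knockouts (limma adjusted p = 0.0304). The rise was at least 0.52 on the log2 scale under every alternative run, and the call was kept in 8 of 13. It was lost with the GC trend removed (0.56, adjusted p = 0.0506), with a variance prior that does not follow expression (adjusted p = 0.0606) and with no filter on low values (adjusted p = 0.0855). It was also lost with either control left out, where limma called 0 of 15815 genes, although 2821 and 3194 had an unadjusted p under 0.05.

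STING1 and CGAS stood in a different ratio in the 2 groups. For each CGAS transcript, control cells held 2.49 and 2.44 STING1 transcripts and DEK KO cells 4.29 and 3.86. These ratios are taken within a library, so the scaling between libraries does not enter them. A trend on GC content does, as STING1 is 56.8% GC and CGAS 43.6%. With that trend removed the log2 fold changes were 0.56 for STING1 and 0.08 for CGAS, against 0.65 and -0.06 as deposited.

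TREX1, the exonuclease that degrades cytosolic DNA (ENSG00000213689, chromosome 3, 48465811 to 48467645, plus strand), was listed at 0 TPM in all 4 libraries. All 1515 of its exon bases (100%) lie within exons of ATRIP on the same strand in GENCODE release 29. ATRIP measured 4.81 and 4.84 TPM in control cells against 5.03 and 6.25 TPM under DEK KO and did not pass the test (adjusted p = 0.446). How reads shared by 2 genes were assigned is not given in the sources used here, so the listed 0 gives no level for TREX1. Whether the overlap produced it was not tested.

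On the RNA side, IFIH1 had the largest log2 fold change of the sensing genes tested. The gene for the helicase MDA5 (ENSG00000115267, chromosome 2, 162267079 to 162318703, minus strand) measured 22.0 and 17.8 TPM in control cells against 48.4 and 25.99 TPM under DEK KO. Both knockouts were above both controls, but knockout 1 was 1.86 times knockout 2, while the controls stood 1.24-fold apart. The ratio of means was 1.87, a log2 difference of 0.81 (95% interval 0.01 to 1.61, SE 0.308), and the gene did not pass the test (limma adjusted p = 0.126). Leaving out knockout 1 gave a log2 difference of 0.38 (adjusted p = 0.136). Leaving out knockout 2 gave 1.25 (adjusted p = 0.0215). With the GC trend removed it was 0.96 (adjusted p = 0.0931).

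The upstream sequence of IFIH1 is shown because it holds the motif of interferon-induced promoters. The 300-base windows that span the start sites in RefSeq (GRCh38.p14) were searched on both strands for the interferon-stimulated response element, ISRE (GAAA and GAAA with any 2 bases between them), and for the interferon gamma-activated site, GAS (TTC and GAA with any 3 bases between them). Of 35116 windows of all genes, 3.57% held an ISRE and 7.66% a GAS. Windows were found for 7 of the 10 genes: IFIH1, RIGI, MAVS, TLR3, TBK1, TREX1 and ADAR (3 windows). Those of IFIH1 and TLR3 held matches, and those of the other 5 genes held none of either motif. The stretch of IFIH1, chr2:162318685-162318853 on the minus strand, runs 5′ to 3′ to the base before the start site, with ISRE matches in capitals; 2 matches on the reverse strand overlap, at -159 and -153 from the start, and 1 forward match lies at -21.
IFIH1: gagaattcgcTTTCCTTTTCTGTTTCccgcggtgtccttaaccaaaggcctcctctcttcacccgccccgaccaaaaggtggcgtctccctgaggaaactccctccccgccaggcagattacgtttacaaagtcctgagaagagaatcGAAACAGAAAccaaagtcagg

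RIGI, which encodes the other cytosolic RNA helicase sensor (ENSG00000107201, chromosome 9, 32455705 to 32526324, minus strand), was close to 0. It was listed at 0.213 and 0.131 TPM in control cells against 0.486 and 0.320 TPM under DEK KO. With the gene length of GENCODE release 29 these values correspond to an estimated 9.39, 5.98, 19.6 and 14.5 reads, which are not whole because the authors' gene length may differ. Both knockouts were above both controls, but no library reached the filter of 1 TPM, and the estimated reads are few. In the fit without a filter the log2 fold change was 0.26 (SE 0.107, limma adjusted p = 0.270). No exon of RIGI overlaps another gene in GENCODE release 29, but the annotation the authors used is not given, so an overlap in theirs could not be checked.

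MAVS, the mitochondrial adaptor of both helicases (ENSG00000088888, chromosome 20, 3846799 to 3876123, plus strand), measured 47.5 and 47.35 TPM in control cells against 40.6 and 41.2 TPM under DEK KO. Both knockouts were below both controls, as were those of 39% of all tested genes, and the replicates of each group were close together. The log2 fold change was -0.21 (95% interval -0.40 to -0.01) and did not pass the test (limma adjusted p = 0.114), nor did it under any of the 13 alternatives, where it lay between -0.26 and -0.15. For each MAVS transcript there were 0.463 and 0.375 IFIH1 transcripts in control cells against 1.19 and 0.631 under DEK KO.

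ADAR, which edits adenosine to inosine in double-stranded RNA and so hides it from MDA5 (ENSG00000160710, chromosome 1, 154582057 to 154628013, minus strand), was the most abundant of the 10 genes. It measured 244 and 232 TPM in control cells against 255 and 203 TPM under DEK KO. Knockout 1 lay above both controls and knockout 2 below both. The log2 fold change was -0.07 (95% interval -0.38 to 0.25, limma adjusted p = 0.727). Chromosome 1, where it lies, had a median difference of 0.17 (log2) between knockout 1 and knockout 2 over 1603 tested genes, and centred on the chromosome median the log2 fold change of ADAR was 0.10 (adjusted p = 0.379). Without knockout 2 it was 0.097 (adjusted p = 0.266), and without knockout 1 it was -0.23 (adjusted p = 0.0439). The values are per gene and do not separate the interferon-inducible from the constitutive ADAR transcripts.

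TLR3, the endosomal sensor (ENSG00000164342, chromosome 4, 186069152 to 186088069, plus strand), measured 9.06 and 7.79 TPM in control cells against 7.98 and 4.32 TPM under DEK KO. The groups overlapped, and knockout 1 was 1.85 times knockout 2. The log2 fold change was -0.45 (95% interval -1.17 to 0.28, limma adjusted p = 0.299). It was -0.82 without knockout 1 (adjusted p = 0.031), -0.07 without knockout 2 and -0.09 with the GC trend removed. The window of TLR3 is shown for comparison with that of IFIH1, from chr4:186068968-186069161 on the plus strand, positions -188 to 6 from the start site, with 2 GAS matches and, across the start, 1 reverse ISRE match in capitals.
TLR3: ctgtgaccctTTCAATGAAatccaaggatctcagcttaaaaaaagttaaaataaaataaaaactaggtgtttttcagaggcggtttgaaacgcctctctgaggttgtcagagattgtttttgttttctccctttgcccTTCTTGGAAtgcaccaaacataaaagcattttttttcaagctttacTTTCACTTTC

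A match describes letters in a window and not a bound site.

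The shared kinase and its substrate lay on opposite sides of 0, although only IRF3 passed the test. TBK1 (ENSG00000183735, chromosome 12, 64451880 to 64502108, plus strand) measured 21.3 and 18.9 TPM in control cells against 14.7 and 13.7 TPM under DEK KO. Both knockouts were below both controls, and the mean was 1.41-fold lower (log2 fold change -0.47, SE 0.113, limma adjusted p = 0.0526). The difference was -0.17 with the GC trend removed (adjusted p = 0.237). It passed the test without knockout 1 (-0.52, adjusted p = 0.0396) and with the mitochondrial genes removed (-0.50, adjusted p = 0.0428). Exons of an antisense gene cover 14.7% of its exon bases, and the use of strand in counting is not given.

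IRF3 (ENSG00000126456, chromosome 19, 49659569 to 49665875, minus strand) measured 65.6 and 64.1 TPM in control cells against 79.05 and 82.1 TPM under DEK KO. The 2 groups were apart and the replicates close, and the mean rose 1.24-fold, from 64.8 ± 1.04 to 80.6 ± 2.18 TPM (log2 fold change 0.31, SE 0.07, limma adjusted p = 0.0472, higher in 2 of 2 knockouts). The call lay near the threshold and was kept in 5 of 13 alternatives. Removing the GC trend gave a log2 difference of 0.20 (adjusted p = 0.0852), and leaving out knockout 2 gave 0.28 (adjusted p = 0.0507). Exons of BCL2L12 on the opposite strand cover 19.35% of the exon bases of IRF3, and BCL2L12 was at 42.6 and 41.5 TPM in control cells against 43.7 and 34.7 TPM under DEK KO. For each TBK1 transcript there were 3.08 and 3.39 IRF3 transcripts in control cells against 5.36 and 6.01 under DEK KO. A trend on GC content enters this ratio, as IRF3 is 59.0% GC and TBK1 39.3%. With that trend removed the log2 fold changes were 0.20 for IRF3 and -0.17 for TBK1, against 0.31 and -0.47 as deposited.

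**Figure D2:**
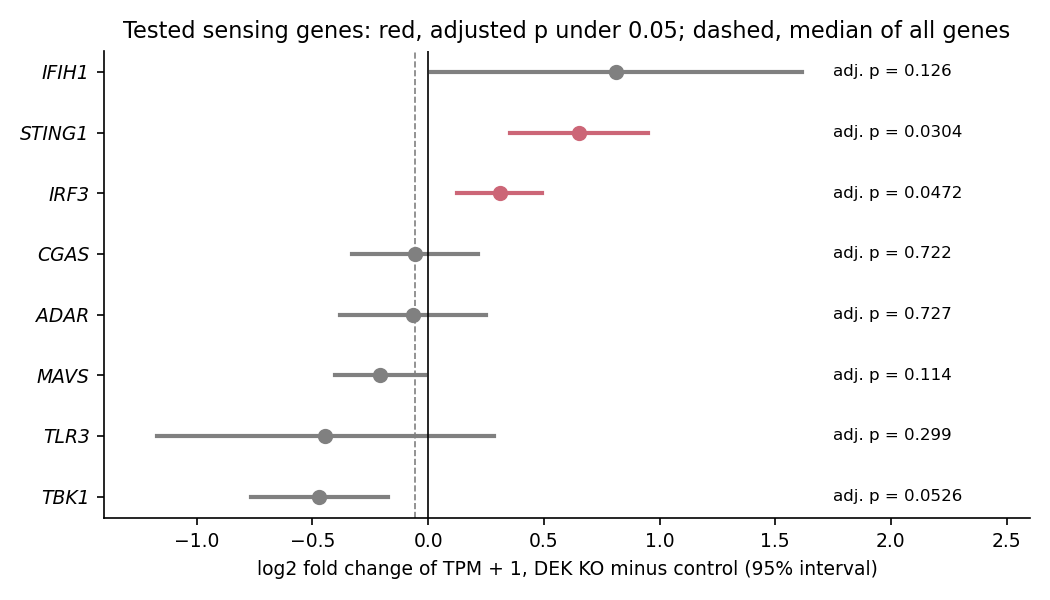
Log2 fold change of TPM + 1 (knockout minus control) of the 8 tested genes with its 95% interval from limma. STING1 and IRF3, in red, passed the adjusted threshold, IFIH1 has the largest value and the widest interval, and the dashed line is the median of all tested genes at -0.06.

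GC content went along with the direction of change over all genes. With the tested genes in 10 equal bins by GC content of the longest transcript, the median log2 fold change went from -0.38 in the lowest bin (up to 38.7% GC) to 0.12 in the highest (from 61.5%). TLR3 (37.6% GC) and TBK1 (39.3%) lay in the lowest 2 bins, whose medians were -0.38 and -0.27. STING1 (56.8%) and IRF3 (59.0%) lay in the bins 8 and 9, with medians of 0.08 and 0.10. The order of the 8 genes did not follow GC content throughout: IFIH1 (43.3%) lay in bin 3, with a median of -0.18, and was above it, and MAVS (52.1%) lay in bin 7, with a median of 0.03, and was below it. CGAS (43.6%) and ADAR (49.3%) lay in bins 4 and 6, with medians of -0.09 and 0.04. Beyond the values with the trend removed, the part of GC content was not tested.

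**Figure D3:**
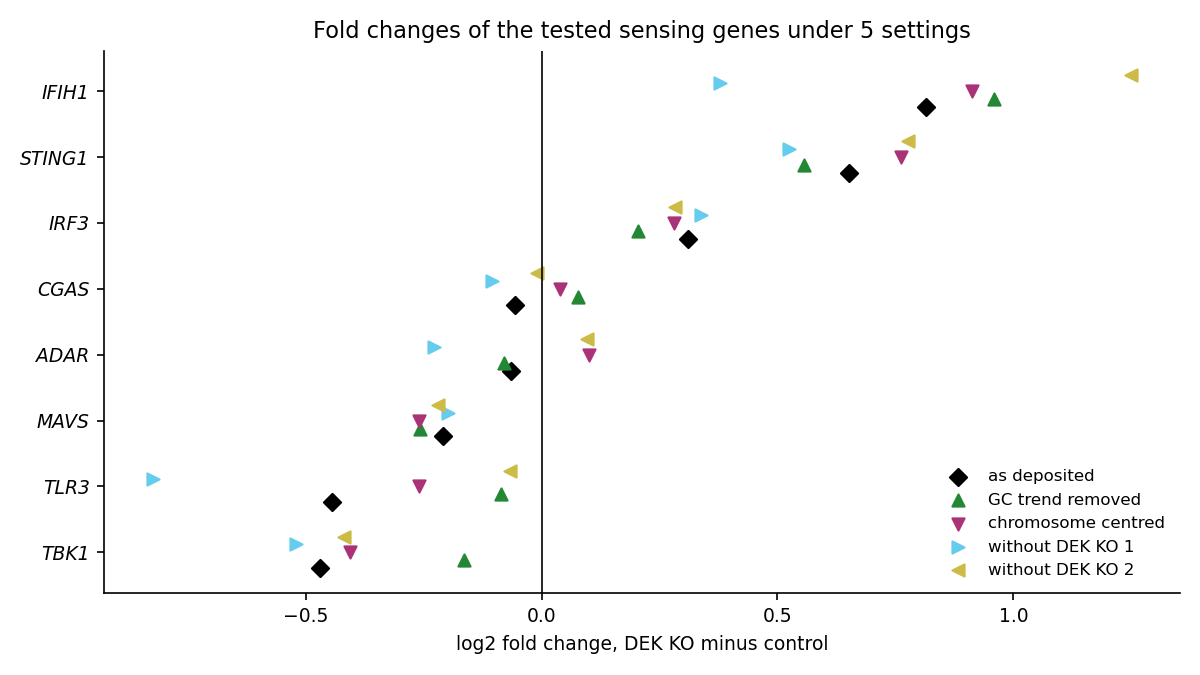
Log2 fold change (knockout minus control) of the 8 tested genes as deposited and under 4 alternatives. STING1 and IRF3 stay above 0 and TBK1 and MAVS below it, TBK1 and TLR3 move towards 0 with the GC trend removed, and IFIH1 and TLR3 depend on which knockout is left out.

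In the order of levels in the controls ADAR came first, at a mean of 238 TPM, above 96.2% of tested genes, then IRF3 (64.8), MAVS (47.4), STING1 (42.3), TBK1 (20.1), IFIH1 (19.9), CGAS (17.2), TLR3 (8.43) and RIGI (0.172). Among these neighbours only the ranges of TBK1 and IFIH1 overlapped. In the knockouts the order was ADAR (229), IRF3 (80.6), STING1 (67.2), MAVS (40.9), IFIH1 (37.2), CGAS (16.5), TBK1 (14.2), TLR3 (6.15) and RIGI (0.403). Here the ranges of MAVS and IFIH1 overlapped. IFIH1 was above MAVS in knockout 1 (48.35 against 40.56 TPM) and below it in knockout 2 (25.99 against 41.21 TPM). STING1 stood above MAVS in both knockouts and below it in both controls. TBK1 stood below CGAS in both knockouts and above it in both controls.

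The 2 knockout libraries differed for IFIH1, TLR3, the outputs of the pathway and some genes of the other lists. IFIH1 and TLR3 were at least 1.5 times as high in knockout 1 as in knockout 2, and 0 of the 8 were as much higher in knockout 2. Of all tested genes, 10% were at least 1.5 times as high in knockout 1. DEK itself was 2.0 times as high in knockout 1. All 5 tested outputs of the pathway (IFIT1, IFIT2, IFIT3, ISG15 and CCL5) were higher in knockout 1 by 1.68 to 2.0 times. In the other lists IFI16 (1.91 times), EIF2AK2 (1.64 times) and XRN1 (1.56 times) were also higher in knockout 1. ENPP1 went the other way, at 0.615 times its level in knockout 2. STING1 (1.19 times), IRF3, TBK1 and MAVS differed less. Each knockout is 1 library here, so this difference has no replicate check.

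**Figure D4:**
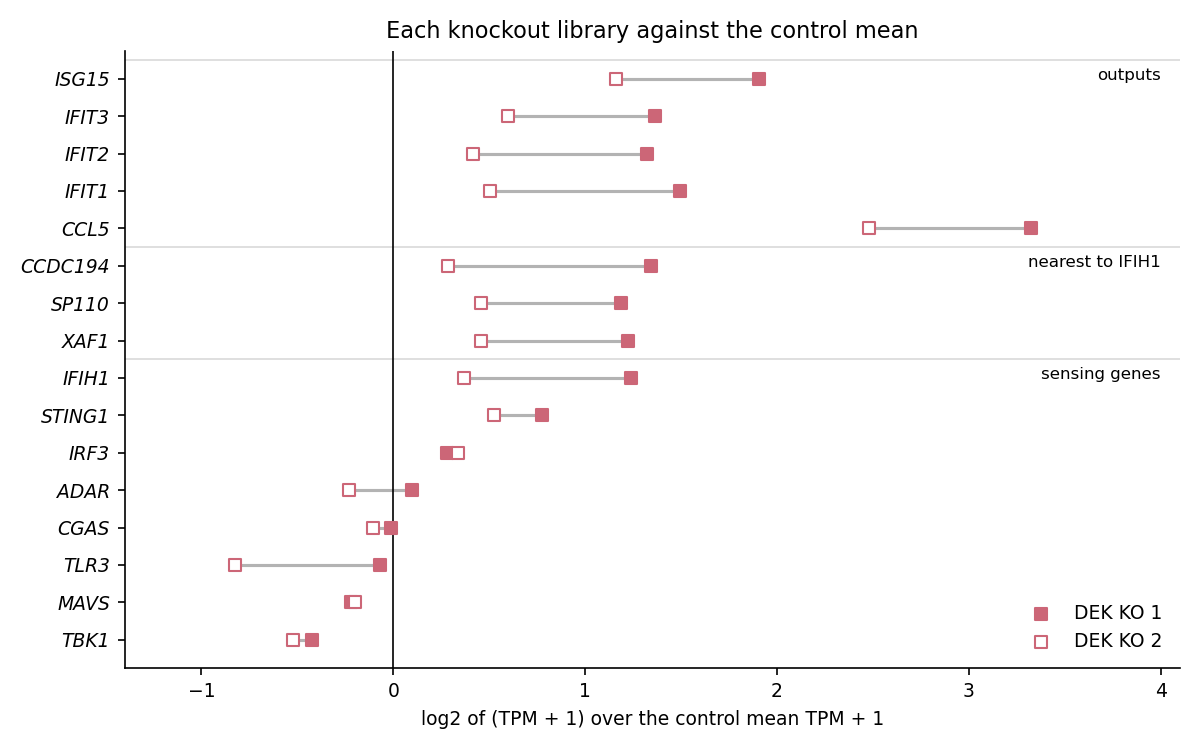
Log2 of TPM + 1 over the control mean in knockout 1 (filled) and knockout 2 (open) for the 8 tested sensing genes, the 3 genes nearest to IFIH1 in profile and the 5 tested outputs. IFIH1 and the outputs lie further right in knockout 1, whereas IRF3, MAVS and TBK1 have both libraries close together. The genes nearest to IFIH1 were chosen for its profile in these libraries, which fixes their position.

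The genes closest to IFIH1 over the 4 libraries, by Euclidean distance between centred log2(TPM + 1) values among 15807 genes, were XAF1 (0.09), SP110 (0.14) and CCDC194 (0.145). XAF1, an interferon-induced gene, measured 21.9 and 18.4 TPM in control cells against 48.4 and 28.1 TPM under DEK KO. SP110, a nuclear body protein induced by interferon, measured 23.7 and 21.1 TPM in control cells against 52.3 and 31.1 TPM under DEK KO. CCDC194 was at 8.13 and 6.90 TPM and then at 20.6 and 9.39 TPM. None of the 3 passed the test (adjusted p = 0.0917, 0.0854 and 0.171), and 4 libraries allow many genes to look alike by this measure. Unlike the window of IFIH1, those of XAF1, SP110 and CCDC194 held no ISRE match. The windows of the outputs IFIT1, IFIT3 and ISG15 did hold the motif. Whether the motif has a part in these profiles was not tested.

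The other genes of the pathway, in 6 lists of 83 genes, went in both directions. Of 64 tested, 10 rose and 5 fell, 23.4% of them against 17.7% of all tested genes (9.06% higher and 8.67% lower), with a median log2 fold change of 0.05. The 10 include AIM2, the only one of the 64 that passed the filter through a single group. Without knockout 1 the calls were 23 higher and 8 lower, in a fit that called 5289 of all 15815 genes, and without either control 0 (17 and 15 with an unadjusted p under 0.05). On the DNA side 3 of 14 tested genes were called higher, AIM2 among them, and 1 fell. ZDHHC1, a palmitoyltransferase reported to aid STING signalling, rose 1.76-fold, from 14.9 ± 1.16 to 26.3 ± 0.957 TPM (log2 fold change 0.78, limma adjusted p = 0.0201). STIM1, the calcium sensor that holds STING in the endoplasmic reticulum, rose 1.40-fold (adjusted p = 0.0336). RNF5, a ubiquitin ligase that acts on STING, fell 1.51-fold, from 127 and 119 TPM to 76.7 and 86.4 TPM (adjusted p = 0.0233).

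AIM2, a DNA sensor that forms inflammasomes and does not use STING, is described by its values only, since it passed the filter through the knockouts alone, which fixed its direction. It measured 0.284 and 0.137 TPM in control cells against 2.55 and 2.0 TPM under DEK KO, an estimated 5.76, 2.88, 47.5 and 41.8 reads. Its adaptor PYCARD did not reach 1 TPM in any library, and exons of an antisense gene cover 59.7% of its exon bases. ZDHHC1 was called in 10 of 13 alternatives, and STIM1 and RNF5 in 9.

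On the RNA side 1 of 16 tested genes rose and 3 fell. These calls are 25% of the 16, against 17.7% of all tested genes (9.06% higher and 8.67% lower). DHX58, which encodes LGP2, the third helicase of the RIG-I family, rose from 4.5 and 3.83 TPM to 12.9 and 10.7 TPM, 2.83-fold (log2 fold change 1.31, SE 0.16, limma adjusted p = 0.0174). Its level in knockout 1 was 1.21 times that in knockout 2. PCBP2, reported to promote the degradation of MAVS, fell 1.45-fold (adjusted p = 0.0195), and TOMM70, a mitochondrial import receptor that binds MAVS, fell 1.54-fold (adjusted p = 0.0403). The call of TOMM70 was kept in 7 of 13 alternatives and was lost with the GC trend removed (-0.43, adjusted p = 0.0628) and without knockout 2 (adjusted p = 0.0796). Exons of other genes cover 32.7% of the exon bases of PCBP2.

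**Figure D5:**
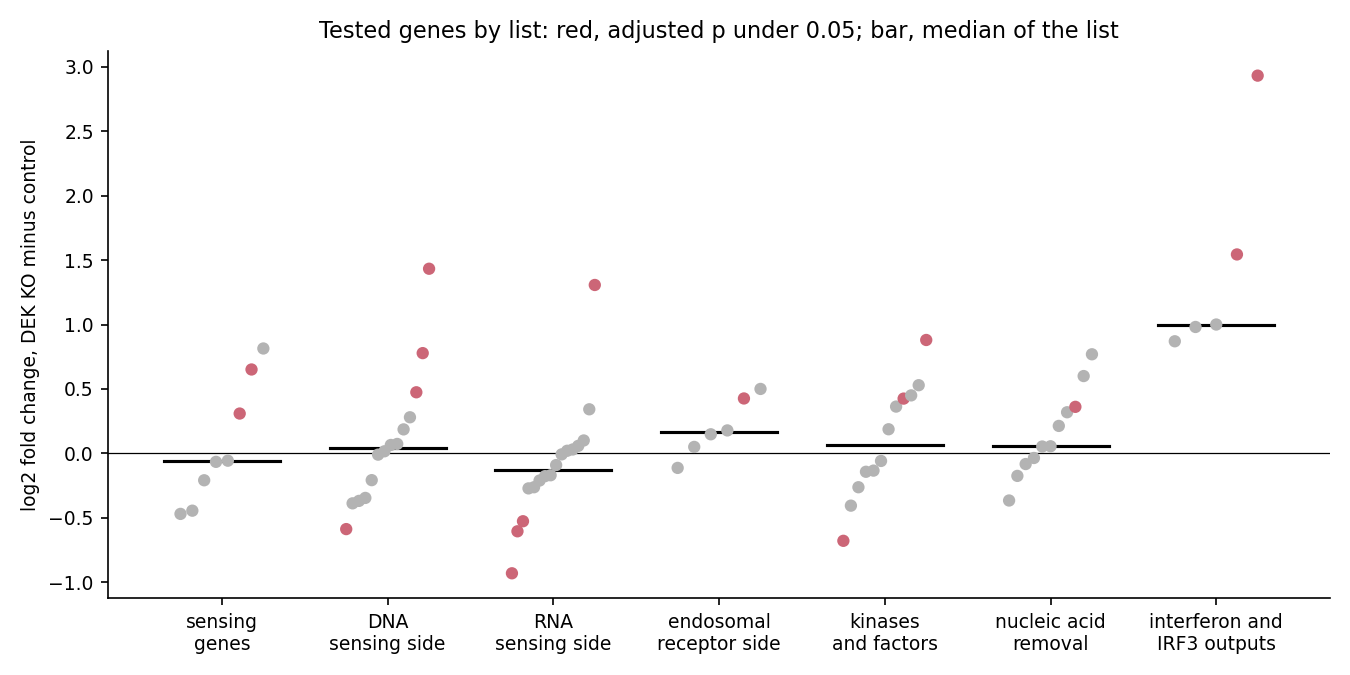
Log2 fold change (knockout minus control) of the tested genes of each list, with calls in red and the list median as a bar. The sensing genes and 5 of the lists have medians near 0 with calls on one or both sides, and the output list lies above 0 throughout.

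Of the 6 tested genes of the endosomal list 1 rose and none fell, 16.7% called against 17.7% of all tested genes. TICAM1, the adaptor TRIF that TLR3 needs, rose from 32.6 and 30.7 TPM to 41.8 and 43.9 TPM, 1.35-fold (limma adjusted p = 0.0378, called in 6 of 13 alternatives). The adaptor MYD88 was at 11.6 and 11.01 TPM and then at 18.45 and 14.6 TPM and did not pass (adjusted p = 0.0769). UNC93B1, the chaperone of endosomal receptors, had a log2 fold change of 0.15 and IRAK1 of 0.18. TLR7, TLR8 and TLR9 were listed at 0 in all libraries. Same-strand exons of another gene cover 86.3% of the exon bases of TLR9, so its 0 gives no level.

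Of 12 tested genes around the kinase, 2 rose and 1 fell, 25% called against 17.7% of all tested genes. TNFAIP3, the inhibitor A20, rose 2.02-fold, from 4.91 ± 0.126 to 9.93 ± 1.6 TPM (limma adjusted p = 0.0312). OPTN, an adaptor that binds TBK1, rose 1.35-fold with an adjusted p of 0.0492, called in 6 of 13 alternatives. TAX1BP1, a partner of A20, fell 1.6-fold, from 82.0 and 73.6 TPM to 54.5 and 42.6 TPM (adjusted p = 0.0405). It was called in 8 of 13 alternatives and not when centred on the chromosome median (adjusted p = 0.0952). TBKBP1, a scaffold of TBK1, was at 10.03 and 9.74 TPM and then at 13.4 and 16.1 TPM and missed the threshold (adjusted p = 0.0565).

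Among 11 tested genes that remove nucleic acids 1 rose and none fell, 9.09% called against 17.7% of all tested genes. DNASE2, the lysosomal DNase, rose 1.29-fold, from 95.6 ± 2.10 to 123 ± 1.37 TPM (limma adjusted p = 0.0315). The call was kept in 8 of 13 alternatives and was lost with no trend in the variance prior (adjusted p = 0.0818) and with a replicate block (adjusted p = 0.051). SAMHD1, a dNTP hydrolase, measured 90.1 and 81.2 TPM in control cells against 178 and 120 TPM under DEK KO (adjusted p = 0.0592). RNASET2 (log2 fold change 0.60, adjusted p = 0.0751) and RNASEH2C (-0.37, adjusted p = 0.114) did not pass either.

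Of 13 output genes 5 were tested, and the interferon genes and CXCL10 stayed under the filter. IFNB1 was listed at 0.118 and 0 TPM in control cells against 0.514 and 0.801 TPM under DEK KO, an estimated 1.02, 0, 4.09 and 7.17 reads, and IFNA1, IFNK and IFNL2 at 0 throughout. IFNE was at 0.402 and 0.129 TPM in control cells against 0.511 and 0.390 TPM under DEK KO, and the groups overlapped. IFNL1 was at 0 and 0.246 TPM and then at 0.695 and 0.248 TPM. IFNL3 was at 0.128 and 0 TPM and then at 0.140 and 0 TPM, again with overlap. CXCL10, an induced chemokine, was listed at 0.337 and 0.162 TPM and then at 0.825 and 0.163 TPM, so the groups overlapped. In the 5 tested genes both knockouts lay above both controls, as in 29.2% of all tested genes, with a median log2 fold change of 1.00. CCL5, a chemokine, rose from 7.45 and 4.64 TPM to 69.6 and 38.35 TPM, 8.93-fold (log2 fold change 2.93, SE 0.343, limma adjusted p = 0.0166). ISG15, the ubiquitin-like modifier, rose 3.0-fold (adjusted p = 0.0293). IFIT1 was at 39.1 and 35.55 TPM and then at 107 and 53.3 TPM (adjusted p = 0.0967), and IFIT3 had a log2 fold change of 0.98 (adjusted p = 0.0613). With knockout 1 or knockout 2 left out 5 of the 5 were called higher, in fits that called 5289 and 2659 of all 15815 genes, and with either control left out 0 were (2 with an unadjusted p under 0.05 each time). These genes respond to interferon as well as to IRF3.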

How the data were processed

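The authors deposited 1 table of TPM with 1 column per library. Per the submitters' processing notes, the tools were STAR 2.7.8a, cutadapt 1.18, DESeq2 1.36.0 and featureCounts 2.0.1 on hg38, with no role for each. Annotation, gene lengths and strand use are not stated in those notes. Groups came from the titles.

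A gene was tested if 2 or more libraries reached 1 TPM (15815 genes). limma 3.58.1 (R 4.3.3) was fitted to log2(TPM + 1) on group alone, with its prior variance following mean expression, and p-values were Benjamini-Hochberg adjusted over all genes. Log2 fold changes on that scale understate changes of low genes, and fold values are ratios of mean TPM. An exact permutation test of 2 against 2 cannot go below 0.333 and was not used. The procedure was tested on simulated data.

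Positions, exon lengths, GC content and overlaps came from GENCODE release 29 (54390 symbols matched by name, 2209 by current symbol). Read estimates scale TPM times exon length until low values are whole, which 46.3% to 53.7% were to within 0.02, so depths are approximate.

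The sensing genes and lists were chosen with earlier results of these data known. Named beside them were, per list, up to 4 genes with the smallest p and all calls where 5 or fewer, the 3 profiles nearest to the tested gene with the largest change, and DEK. One gene that this rule names is not reported here. Other genes, such as IFIT2, PYCARD, ATRIP and BCL2L12, were named after their values were seen. Alternatives covered the pseudocount, filter, scaling, mitochondrial genes, variance prior, replicate block, GC content, chromosome and each library left out.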

Additional observations from a re-analysis of the deposited data

How the results depend on the processing

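Counts of calls were within 1.5 times of those reported under a pseudocount of 0.1, median-ratio scaling, quantile normalization, removal of mitochondrial genes and centring on chromosome medians. With no filter, calls fell to 26 of 31270 genes (7168 with unadjusted p under 0.05). Among these were 0 of 9 sensing genes (4 unadjusted) and 0 of 76 pathway genes (29 unadjusted). With no trend in the variance prior the calls were 1437 of 15815 genes (5774 unadjusted), 0 of 8 sensing genes (3 unadjusted) and 6 of 64 pathway genes. With the GC trend removed 0 of 8 sensing genes were called (4 unadjusted), against 2583 of 15640 genes over all (5658 unadjusted). With single libraries left out, calls ranged from 0 to 5289 over all genes, 0 to 5 sensing genes and 0 to 31 pathway genes. The zeros came without either control. Without knockout 1 the 5 were STING1, IRF3, TLR3, TBK1 and ADAR. The lone library of a group is then assumed to vary like the other group. Of 2804 calls 1433 were higher, against 1588 of 2543 under median-ratio scaling and 1706 of 2829 centred on chromosomes. With mitochondrial genes removed the 2 called sensing genes were STING1 and TBK1, 1 in each direction.

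The sign of CGAS turned under median-ratio scaling (0.00055), quantile normalization (0.014), GC removal (0.077) and chromosome centring (0.038). That of ADAR turned with chromosome centring (0.10), and with single libraries left out ADAR ranged from -0.23 to 0.097. The cause was not tested.

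Same-numbered libraries deviated together with a correlation of 0.0989, and with 2 pairs the numbers were not taken as pairs. With the replicate block 2971 genes, 2 sensing genes (STING1 and IFIH1) and 17 pathway genes were called.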
